A study of Homo sapiens with 12 samples.

Results

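The genes described here are 8 members of the tumour necrosis factor (TNF) receptor superfamily that epithelial cells can use: TNFRSF12A, TNFRSF10A, TNFRSF10B, TNFRSF10D, TNFRSF21, TNFRSF1A, FAS and CD40. They were taken by symbol from a table of 26365 gene symbols. The RNA came from HCC70, an established basal-like triple-negative breast cancer line, meaning that it lacks oestrogen and progesterone receptors and HER2 amplification. Every library came from cells with a stable short hairpin RNA (shRNA), either a scrambled control (scramble cells) or one against LAD1 (shLAD1 cells), a gene named in the study's title as a binder of the actin crosslinker filamin. Cells spent the night in serum-free medium and were collected untreated (0 min) or after 40 or 240 min with epidermal growth factor (EGF) at 50 ng/ml, with 2 libraries in each of the 6 groups. The labels name no second LAD1 shRNA and do not say whether each stable line was a clone or a pool. No libraries of cells kept for 40 or 240 min without EGF were among the 12, so EGF and time in the medium cannot be told apart.

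Receptors of this superfamily bind trimeric ligands of the TNF superfamily through cysteine-rich repeats outside the cell and carry no enzyme activity of their own. Those with a cytoplasmic death domain, which are FAS, TNFRSF1A, TNFRSF10A, TNFRSF10B and TNFRSF21 here, can recruit adaptors such as FADD or TRADD and in some settings activate caspase-8. TNFRSF12A and CD40 lack a death domain and bind TRAF adaptors, which lead to NF-kappa-B and MAP kinase signalling. TNFRSF10D binds the ligand TRAIL (gene TNFSF10) but has a truncated death domain and is known as a decoy receptor. In breast epithelium and its tumours, TRAIL receptors have been studied as routes to cell death, and TNFRSF12A as a growth factor-inducible receptor.

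Promoter sequences are shown for TNFRSF21 and TNFRSF1A, a pair of members whose order of RNA levels per kilobase of exon differed between 0 and 240 min of EGF (values below). The RefSeq promoter entries (build GRCh38.p14) span 250 bases before to 50 bases after the annotated start. Entries of 3 of the 8 genes were used, the third being FAS. That the other members are left out here does not mean that they lack an entry. The entry of TNFRSF21 lies at chr6:47309856-47310155 on the minus strand, and that of TNFRSF1A at chr12:6342027-6342326 on the minus strand. Capitals mark a GC box, read here as CCGCCC on the strand of the gene.
TNFRSF21: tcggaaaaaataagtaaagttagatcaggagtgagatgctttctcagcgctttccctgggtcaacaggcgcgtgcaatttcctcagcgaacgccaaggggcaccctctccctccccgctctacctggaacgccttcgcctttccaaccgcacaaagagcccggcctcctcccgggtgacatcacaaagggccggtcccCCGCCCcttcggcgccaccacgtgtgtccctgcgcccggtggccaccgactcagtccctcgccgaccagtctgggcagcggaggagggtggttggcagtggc
TNFRSF1A: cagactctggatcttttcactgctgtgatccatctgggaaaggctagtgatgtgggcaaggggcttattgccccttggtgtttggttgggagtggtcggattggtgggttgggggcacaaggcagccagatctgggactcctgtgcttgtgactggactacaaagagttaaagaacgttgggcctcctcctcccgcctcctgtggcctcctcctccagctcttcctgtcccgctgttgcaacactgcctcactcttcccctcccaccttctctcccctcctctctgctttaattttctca
The TNFRSF21 window had a GC content of 63.3% with 23 CpG dinucleotides and the TNFRSF1A window 55.7% with 4, against a median GC content of 58.7% over 35116 promoters of the same length. Motifs were searched on both strands as exact letters: AP-1 (TGANTCA), CRE (TGACGTCA), GC box (GGGCGG), EGR (GCGNGGGCG), the kappa B site and the serum response element. They occurred in 7.71%, 1.85%, 45%, 9.43%, 11.3% and 1.29% of those promoters, in that order. The TNFRSF21 window held the GC box, 52 bases before the start, and none of the others in these letters, and the TNFRSF1A window held none. Of the FAS windows, the first held an AP-1 motif (-242 from the start) and a GC box (-60). The second held 2 GC boxes, 1 EGR and 1 kappa B motif. The third, which overlaps the first, held 1 GC box. Any relation of these motifs to the EGF responses was not tested. EGR and GC box letters can overlap.

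The libraries held 12428618 to 16721013 reads assigned to genes. LAD1, the targeted gene, had 5808 to 10194 normalized counts (reads divided by the library's size factor) in the 6 scramble libraries and 865 to 2535 in the 6 shLAD1 libraries, a difference of -2.39 ± 0.08 on the log2 scale averaged over the 3 times (SE, limma adjusted p = 2.28e-06). All 6 epithelial and all 5 basal-like markers examined passed the filter on low values, with summed levels of 60240 to 105128 and 58656 to 117043 normalized counts. ESR1 and PGR together had 18.0 to 29.0. Of 5 leukocyte markers CD14 and CD68 passed the filter, with a summed level of 1631 to 2874, while the pan-leukocyte gene PTPRC had at most 1.11 in any library. Tests used limma on log2(normalized count + 1) over 13950 genes, with Benjamini-Hochberg adjustment and 0.05 as the threshold. A log2 change below is on that scale and is given with its standard error (SE). The SE rests on 1 spread per gene, pooled over the 6 groups of 2 libraries and drawn toward that of genes of like level. The labels do not say that the libraries came from separate cultures, so p-values measure the spread between these libraries. In bulk RNA, fewer cells of a kind and less RNA per cell cannot be told apart.

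Of the 8 receptors, 7 passed the filter. Per kilobase of exon (GENCODE 29 lengths, which may differ from the annotation used for counting), the mean level over the 12 libraries was 4240 normalized counts for TNFRSF12A, 720 for TNFRSF1A, 612 for TNFRSF21, 62.9 for TNFRSF10B, 56.7 for FAS, 29.0 for TNFRSF10A and 15.1 for TNFRSF10D. The first 3 thus lay about an order of magnitude or more above the TRAIL receptors and FAS. In untreated scramble cells the per-kilobase order was TNFRSF12A (1714 ± 197, SD, n = 2), TNFRSF1A (673 ± 39.7), TNFRSF21 (360 ± 31.2), FAS (46.2 ± 14.1), TNFRSF10B (44.3 ± 0.563), TNFRSF10A (17.5 ± 0.621) and TNFRSF10D (14.3 ± 1.99). FAS and TNFRSF10B did not differ beyond the spread of FAS in that order. After 240 min in the same cells TNFRSF21 (969 ± 128) stood above TNFRSF1A (816 ± 52.4), and TNFRSF10A (45.4 ± 6.06) reached the level of FAS (45.1 ± 2.80). CD40, which B cells, dendritic cells and some epithelial cells use to receive signals from T cells, had 0 of 162609520 reads, which allows up to 3 reads over all libraries (counting error only), and it was not tested. Whether the counting annotation covered CD40 beyond its row in the table is not known, and if it did not, that limit does not apply.

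**Figure D1:**
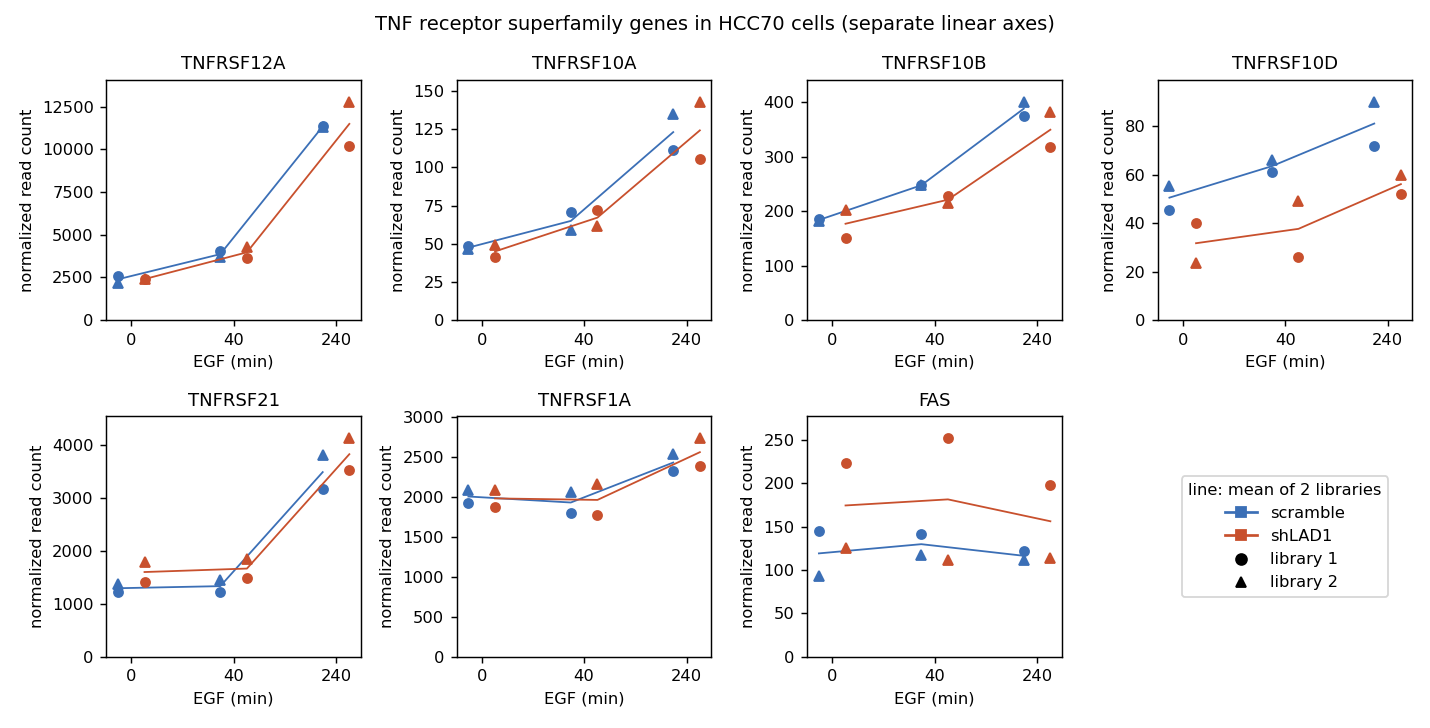
Normalized read count (vertical, a separate linear axis from 0 for each gene) against EGF time (horizontal, 0, 40 and 240 min at equal spacing) for the 7 receptors with reads; circles are library 1, triangles library 2, lines join the means of 2 libraries, blue is scramble and red shLAD1. The 4 libraries at 240 min lie above all others for TNFRSF12A, TNFRSF10A, TNFRSF10B, TNFRSF21 and TNFRSF1A, while FAS library 1 lies above library 2 in all 6 groups. The share of all tested genes that separate by time in this way was not counted, here or for the genes below.

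TNFRSF12A, the receptor for TWEAK (gene TNFSF12), had the highest level per kilobase and the largest estimated log2 change at 240 min of the 7 tested. In scramble cells the 2 libraries had 2582 and 2194 normalized counts at 0 min, 4027 and 3691 at 40 min, and 11356 and 11318 at 240 min. In shLAD1 cells they had 2378 and 2420, then 3646 and 4290, then 10178 and 12790. The 3 times did not overlap in either kind of cell, and at each time the values of both kinds of cell overlapped. Against 0 min, TNFRSF12A rose by 40 min in scramble cells (log2 change 0.70 ± 0.12, 1.62-fold, limma adjusted p = 0.0430) and in shLAD1 cells (0.72 ± 0.12, 1.65-fold, limma adjusted p = 0.0287). It was the only one of the 7 tested receptors called at 40 min, when 0.853% of all tested genes were called in scramble cells and 1.04% in shLAD1 cells. The 40 min calls rest on narrow margins. With any 1 of the 4 libraries left out, the scramble call was lost (limma adjusted p 0.0972 to 0.406), and without any of 3 of the 4 libraries (either 0 min library or 40 min library 2) the shLAD1 call was lost (0.167 to 0.234). The scramble call was also lost with total-count scaling (0.0522), upper-quartile scaling (0.0574) or a fit to only those groups (0.0730), and the shLAD1 call with a fit to only its groups (0.227).

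By 240 min TNFRSF12A had risen 4.76-fold in scramble cells (log2 change 2.25 ± 0.12, 95% interval 1.97 to 2.53, limma adjusted p = 2.32e-05) and 4.75-fold in shLAD1 cells (2.25 ± 0.12, limma adjusted p = 3.91e-05). Most of the change came after 40 min, with a log2 change from 40 to 240 min of 1.56 in scramble cells and 1.53 in shLAD1 cells. Its ligand gene TNFSF12 had 89.1 to 136 normalized counts in scramble cells and 73.3 to 124 in shLAD1 cells. TNFSF12 was not called at 240 min (log2 change -0.24 ± 0.25, limma adjusted p = 0.557 in scramble cells, and -0.30 ± 0.25, 0.465 in shLAD1 cells). CLDN6, whose exons overlap those of TNFRSF12A on the other strand, had at most 2.05 normalized counts in any library.

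At 240 min, 4 of the 7 tested receptors were called, all higher and the same 4 in both kinds of cell: TNFRSF12A, TNFRSF21, TNFRSF10A and TNFRSF10B. Among all tested genes 20.2% were called in scramble cells and 18.5% in shLAD1 cells. The median log2 change of the 7 receptors was 1.07 in scramble cells and 0.99 in shLAD1 cells, beside -0.02 and -0.01 over all tested genes. From 40 to 240 min the same 4 were called in each kind of cell, when 18.5% of genes were called in scramble cells and 16.4% in shLAD1 cells. With total-count scaling the median of all genes at 240 min moved to -0.14 in scramble cells and -0.13 in shLAD1 cells, and the 4 receptors were still called higher. The scramble and shLAD1 comparisons share no libraries. With the shLAD1 groups fitted alone, TNFRSF10A and TNFRSF10B missed the threshold at 240 min (limma adjusted p = 0.0640 and 0.0806).

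**Figure D2:**
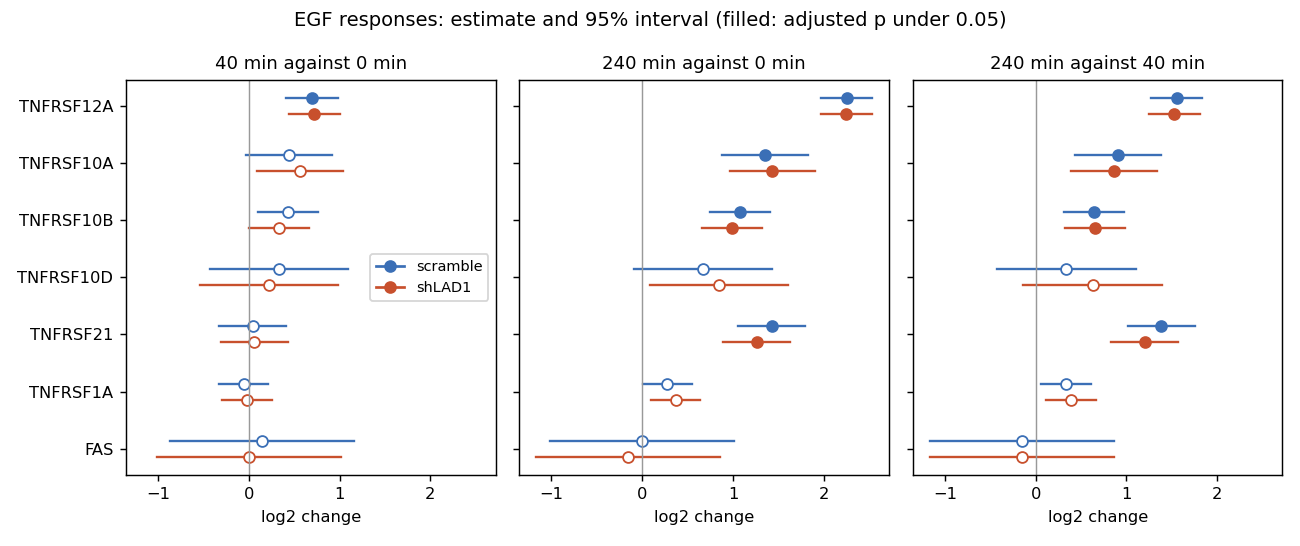
Log2 change with its 95% interval (horizontal) for each tested receptor (rows) in the 3 EGF comparisons, blue for scramble and red for shLAD1 cells, filled where the limma adjusted p was under 0.05. TNFRSF12A is filled in all panels, and TNFRSF10A, TNFRSF10B and TNFRSF21 are filled in both comparisons with 240 min.

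TNFRSF10A and TNFRSF10B, known as DR4 and DR5, are the death-domain receptors for TRAIL and lie with TNFRSF10D on chromosome 8. TNFRSF10A had 48.7 and 46.3 normalized counts at 0 min, 70.6 and 59.3 at 40 min, and 111 and 135 at 240 min in scramble cells. In shLAD1 cells it had 41.1 and 48.8, then 72.4 and 61.8, then 105 and 143. No library of one time overlapped those of another, in either kind of cell or across both. TNFRSF10A rose by 240 min in scramble cells (log2 change 1.35 ± 0.21, 95% interval 0.88 to 1.82, 2.55-fold, limma adjusted p = 0.00236) and in shLAD1 cells (1.43 ± 0.21, 2.70-fold, limma adjusted p = 0.00206). At 40 min its log2 change was 0.44 ± 0.21 in scramble cells and 0.57 ± 0.21 in shLAD1 cells, and neither passed (limma adjusted p = 1.0 and 0.684).

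TNFRSF10B had 185 and 182 normalized counts at 0 min, 247 and 247 at 40 min, and 375 and 401 at 240 min in scramble cells. In shLAD1 cells it had 151 and 203, then 227 and 215, then 317 and 381. Here too the 3 times did not overlap over both kinds of cell. TNFRSF10B rose by 240 min in scramble cells (log2 change 1.07 ± 0.15, 95% interval 0.74 to 1.40, 2.10-fold, limma adjusted p = 0.00122) and in shLAD1 cells (0.99 ± 0.15, 1.98-fold, limma adjusted p = 0.00225). At 40 min the log2 change was 0.43 ± 0.15 (limma adjusted p = 0.659) and 0.33 ± 0.15 (0.905). With the replicate number as a block within each shRNA, the scramble change at 40 min passed (limma adjusted p = 0.0237). RHOBTB2, whose exons overlap those of TNFRSF10B on the other strand, had 35.0 to 83.0 normalized counts and was not called at 240 min (limma adjusted p = 0.262 in scramble and 0.634 in shLAD1 cells). The kit does not mark strand, so reads from their shared bases cannot be told apart.

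From 40 to 240 min TNFRSF10A changed by 0.91 (limma adjusted p = 0.0162) in scramble cells and 0.87 (0.0223) in shLAD1 cells, and TNFRSF10B by 0.65 (0.0153) and 0.65 (0.0167). Fits with 1 library left out keep 1 library in that group, and they called fewer of all genes too. In scramble cells they gave log2 changes of 0.78 to 1.05 for TNFRSF10A and 0.60 to 0.69 for TNFRSF10B. In shLAD1 cells they gave 0.65 to 1.09 and 0.52 to 0.79. Without scramble 40 min library 1, 40 min library 2 or 240 min library 2 the scramble call of TNFRSF10A was lost (limma adjusted p 0.0505 to 0.117), and that of TNFRSF10B without any 1 of the 4 (0.0551 to 0.0966). Without shLAD1 40 min library 1, 40 min library 2 or 240 min library 2 both shLAD1 calls were lost (0.0517 to 0.143 for TNFRSF10A and 0.0528 to 0.110 for TNFRSF10B).

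TNFRSF10D, the TRAIL receptor with a truncated death domain, had the lowest level of the 7. Its counts were 45.5 and 55.5 at 0 min, 61.1 and 66.0 at 40 min, and 72.0 and 90.2 at 240 min in scramble cells, and 40.0 and 23.4, then 26.1 and 49.2, then 52.2 and 60.0 in shLAD1 cells. The scramble libraries of the 3 times did not overlap, while those of shLAD1 cells at 0 and 40 min did. At 240 min the log2 change was 0.67 ± 0.34 in scramble cells (95% interval -0.09 to 1.43, limma adjusted p = 0.205) and 0.85 ± 0.34 in shLAD1 cells (0.09 to 1.61, 0.120), so neither passed. With the replicate block within each shRNA, the shLAD1 change passed (limma adjusted p = 0.0168).

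TNFSF10, which encodes TRAIL, the ligand of these 3 receptors, went the other way. In scramble cells it had 2873 and 3851 normalized counts at 0 min, 2681 and 3259 at 40 min, and 851 and 831 at 240 min. In shLAD1 cells it had 2169 and 3195, then 1982 and 2744, then 709 and 687. The 0 and 40 min libraries overlapped, and every 240 min library lay below all of them. TNFSF10 fell by 1.98 ± 0.22 on the log2 scale by 240 min in scramble cells (3.95-fold lower, limma adjusted p = 0.000653) and by 1.91 ± 0.22 in shLAD1 cells (3.77-fold lower, limma adjusted p = 0.000921). At 40 min its log2 change was -0.17 in both kinds of cell (limma adjusted p = 1.0 in each). The 240 min calls were kept under every alternative run and without each library in turn. Thus at 240 min the RNA of both death-domain TRAIL receptors was higher, and that of TRAIL lower, than in untreated cells of the same kind.

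**Figure D3:**
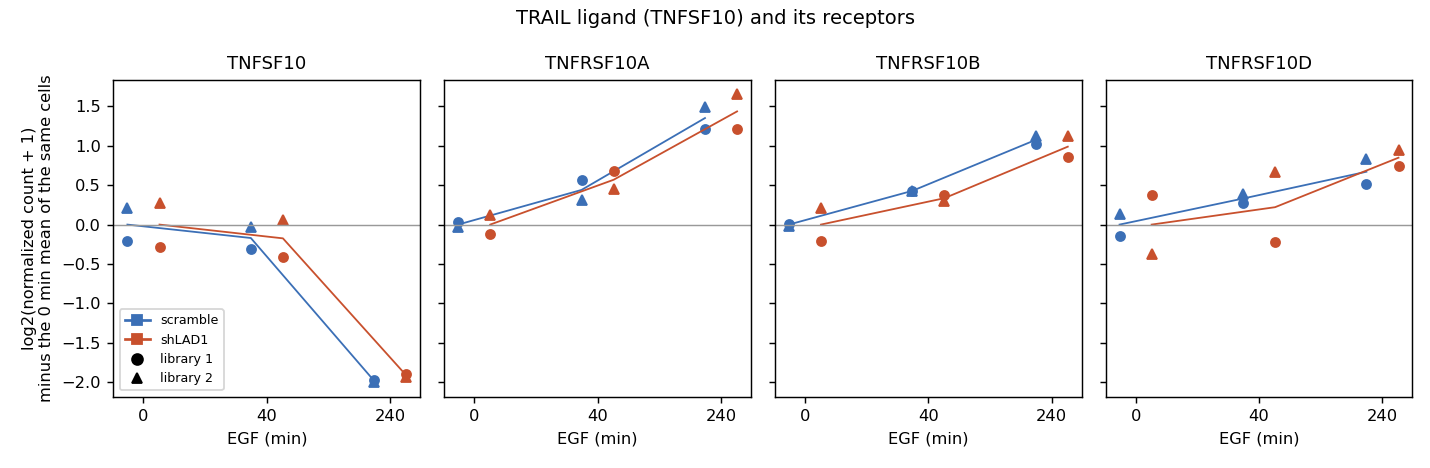
Log2(normalized count + 1) of TRAIL (TNFSF10) and its 3 receptors in each library minus the 0 min mean of the same cells (vertical), against EGF time (horizontal, 0, 40 and 240 min at equal spacing); circles are library 1, triangles library 2, lines join means of 2 libraries, blue is scramble and red shLAD1. TNFSF10 lies near -1.98 and -1.91 at 240 min, where TNFRSF10A lies at 1.35 and 1.43 and TNFRSF10B at 1.07 and 0.99.

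TNFRSF21, or DR6, is a death-domain receptor studied chiefly in neurons and T cells. It had 1214 and 1373 normalized counts at 0 min, 1226 and 1440 at 40 min, and 3159 and 3810 at 240 min in scramble cells. In shLAD1 cells it had 1411 and 1787, then 1484 and 1845, then 3522 and 4122. The 0 and 40 min libraries overlapped in both kinds of cell, and those at 240 min lay above all of them. TNFRSF21 rose by 240 min in scramble cells (log2 change 1.43 ± 0.16, 95% interval 1.06 to 1.79, 2.69-fold, limma adjusted p = 0.000604) and in shLAD1 cells (1.26 ± 0.16, 2.40-fold, limma adjusted p = 0.00126). At 40 min its log2 change was 0.04 ± 0.16 and 0.06 ± 0.16 (limma adjusted p = 1.0 in each), so unlike TNFRSF12A it had no call at 40 min. Whether the 2 genes differ in timing was not tested. From 40 to 240 min it rose by 1.38 and 1.20 (limma adjusted p = 0.000834 and 0.00173), and the shLAD1 value missed the threshold with those groups fitted alone (0.0516).

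TNFRSF1A, the widely expressed receptor for TNF, had the narrowest range of the 7, with a ratio of 1.55 between its highest and lowest library. Its counts were 1920 and 2087 at 0 min, 1799 and 2058 at 40 min, and 2318 and 2538 at 240 min in scramble cells, and 1874 and 2086, then 1767 and 2155, then 2384 and 2732 in shLAD1 cells. All 4 libraries at 240 min lay above the other 8. The log2 change at 240 min was 0.28 ± 0.12 in scramble cells (95% interval 0.00 to 0.55, limma adjusted p = 0.146) and 0.37 ± 0.12 in shLAD1 cells (0.10 to 0.64, 0.0659), and from 40 to 240 min 0.33 (0.0902) and 0.39 (0.0596). None passed this test. DESeq2 called both shLAD1 changes (adjusted p = 0.0396 and 0.0328), and limma with only those groups the scramble change from 40 to 240 min (0.0473). With the replicate number as a block all 4 passed, with limma adjusted p = 0.00424 and 0.000901 against 0 min and 0.00158 and 0.000752 against 40 min, in scramble and shLAD1 cells. Library 2 was above library 1 in each of the 6 groups, by 0.12 to 0.29 on the log2 scale. At 40 min the change was -0.06 and -0.02.

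FAS, the death-domain receptor for FAS ligand, had the widest intervals of the 7 at each EGF comparison. It had 145 and 93.6 normalized counts at 0 min, 142 and 118 at 40 min, and 122 and 111 at 240 min in scramble cells, and 224 and 125, then 252 and 111, then 198 and 114 in shLAD1 cells. Library 1 was above library 2 in all 6 groups, by 0.13 to 1.17 on the log2 scale, and the times overlapped. The log2 change at 240 min was -0.00 ± 0.44 in scramble cells (95% interval -1.01 to 1.01, limma adjusted p = 0.999) and -0.15 ± 0.44 in shLAD1 cells (-1.17 to 0.86, 0.868). The intervals for FAS reach log2 changes of 1.01 and 0.86 upward and -1.01 and -1.17 downward, so the main fit does not exclude changes of that size. That fit held no term for the replicate number, so the offset between libraries 1 and 2 adds to the width of these intervals. With the replicate number as a block FAS was also not called at 240 min (limma adjusted p = 0.997 and 0.654). The same held with the block within each shRNA (0.994 and 0.397).

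Whether LAD1 shRNA went with other receptor levels was asked at each time and over the mean of the 3 times. By limma 0 of the 7 receptors were called at 0, 40 or 240 min (0, 1 and 0 at an unadjusted p under 0.05), when 1.56%, 1.65% and 0.953% of all tested genes were called, and edgeR and DESeq2 also called 0 receptors at each time. Over the mean of the 3 times TNFRSF10D was called lower in shLAD1 cells (log2 difference -0.67 ± 0.19, 95% interval -1.11 to -0.23, 0.627 of the scramble level, limma adjusted p = 0.0424), beside 18.6% of all tested genes called. At each time both shLAD1 libraries of TNFRSF10D lay below both scramble libraries, with log2 differences of -0.70, -0.81 and -0.52 at 0, 40 and 240 min (limma adjusted p = 0.364, 0.286 and 0.510). Across times the shRNAs overlapped, with 60.0 in shLAD1 240 min library 2 and 45.5 in scramble 0 min library 1. The share of all tested genes that separate by shRNA at a time or over all times was not counted, here or below. The fit over the mean counts the 12 libraries as independent, although the replicate numbers pair them. With the replicate number as a block the TNFRSF10D call was kept (limma adjusted p = 0.0157). A fit with 1 mean for each of the 4 combinations of shRNA and replicate number called 0 of all tested genes. A call lost under it thus does not single out a gene, here or below. In that fit the limma adjusted p of TNFRSF10D was 0.304, and that of LAD1 itself was 0.111. The call was also lost without any 1 of 10 of the 12 libraries, the exceptions being shLAD1 0 min library 1 and shLAD1 40 min library 2 (limma adjusted p otherwise 0.0558 to 0.109).

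The other receptors were not called over the mean of the 3 times. TNFRSF21 was higher in shLAD1 cells by 0.25 ± 0.09 (95% interval 0.04 to 0.46, limma adjusted p = 0.0972). With the replicate number as a block it passed over the mean (limma adjusted p = 0.000333), at 0 min (0.00996) and at 40 min (0.00746), but not with 1 mean per combination of shRNA and replicate number (over the mean, 0.507). FAS differed by 0.42 ± 0.26 (-0.17 to 1.0, limma adjusted p = 0.283) and passed with the block (0.0290) but not with 1 mean per combination (0.649), its shLAD1 library 1 values of 198 to 252 being the 3 highest of the 12. The intervals for the rest were -0.14 to 0.18 for TNFRSF12A, -0.13 to 0.18 for TNFRSF1A, -0.28 to 0.26 for TNFRSF10A and -0.32 to 0.06 for TNFRSF10B. Some markers of other cell types moved with the shRNA. The summed level of 4 fibroblast markers was 243 to 376 normalized counts in scramble and 510 to 897 in shLAD1 libraries. That of 3 endothelial markers was 10.1 to 17.6 and 29.8 to 46.0. CD68, of the leukocyte list, had 741 to 1017 in scramble and 1081 to 1577 in shLAD1 libraries, with no overlap, and was called higher at 0 min (log2 difference 0.73, limma adjusted p = 0.0392), at 40 min (0.72, 0.0407) and over the mean (0.70, 0.000842). Nearly all of the fibroblast sum was COL1A1, while COL1A2 and COL3A1 had at most 1.03 in any library. Of the endothelial markers, CDH5 did not overlap (2.25 to 7.20 in scramble and 19.5 to 28.3 in shLAD1 libraries), while PECAM1 and VWF did. The part of these fibroblast, endothelial and leukocyte markers in the receptor differences was not tested. In the authors' deposited table, whose contrast matched shLAD1 against scramble at 0 min, the smallest adjusted p of the members was 0.488, for TNFRSF21.

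**Figure D4:**
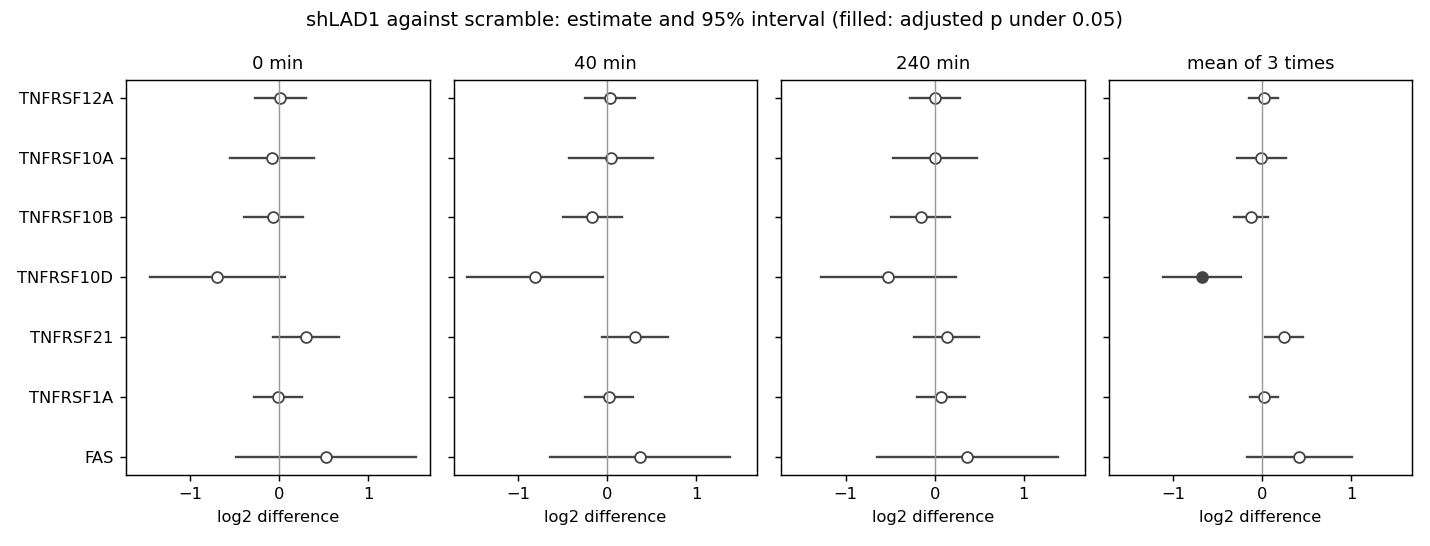
Log2 difference of shLAD1 against scramble cells with its 95% interval (horizontal) for each tested receptor (rows) at 0, 40 and 240 min and over the mean of the 3 times; filled where the limma adjusted p was under 0.05. Only TNFRSF10D over the mean of 3 times (-0.67) is filled, and FAS has the widest intervals at single times.

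The EGF responses of both kinds of cell were compared directly as a difference of differences. No gene was called for the 40 min or the 240 min response (0% of tested genes in each by limma, 99 and 133 at an unadjusted p under 0.05; edgeR and DESeq2 also called 0). For the 240 min response, shLAD1 minus scramble, the difference was -0.00 for TNFRSF12A (95% interval -0.40 to 0.40), 0.08 for TNFRSF10A (-0.59 to 0.75), -0.09 for TNFRSF10B (-0.55 to 0.38), 0.18 for TNFRSF10D (-0.90 to 1.25), -0.16 for TNFRSF21 (-0.68 to 0.36), 0.09 for TNFRSF1A (-0.29 to 0.48) and -0.15 for FAS (-1.58 to 1.28). The intervals show how large a difference the main fit does not exclude, least for TNFRSF1A and TNFRSF12A and most for FAS. That fit held no term for the replicate number, so differences between libraries that follow the number add to their width. With the replicate block within each shRNA 11 and 27 genes were called, none of them a member.

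Of 21 other receptors of the superfamily, 8 passed the filter, and 2 of them were called at 240 min, both higher in both kinds of cell. LTBR, the lymphotoxin beta receptor, went from 1463 and 1618 to 2237 and 2691 normalized counts in scramble cells (log2 change 0.67 ± 0.13, limma adjusted p = 0.00642) and from 1483 and 1400 to 2399 and 2520 in shLAD1 cells (0.77 ± 0.13, 0.00364). RELT went from 187 and 225 to 335 and 387 (0.81 ± 0.14, limma adjusted p = 0.00446) and from 189 and 216 to 320 and 343 (0.71 ± 0.14, 0.00882). The LTBR call in scramble cells was lost without 0 min library 1 or 240 min library 2 (0.0522 and 0.0555). The RELT call in shLAD1 cells was lost without the libraries of the same time and number there (0.0521 and 0.0589) and with those groups fitted alone (0.0741). TNFRSF14, a receptor for the ligand LIGHT (gene TNFSF14), had a log2 change of -0.60 (limma adjusted p = 0.0911) and -0.61 (0.0940). TNFRSF25, a death-domain receptor that shares exon bases with the neighbouring PLEKHG5, had -0.51 (limma adjusted p = 0.0748) and -0.49 (0.0895). PLEKHG5, on the same strand, had 37.9 to 129 normalized counts and was itself called lower (-0.88, limma adjusted p = 0.0303, and -1.09, 0.0132). Whether shared reads enter the TNFRSF25 values was not tested. TNFRSF13C (-0.90 and -1.04), TNFRSF11A (0.10 and -0.02), TNFRSF18 (0.05 and 0.13) and TNFRSF11B (1.50 and 1.39) were also not called. With the replicate block 5 of the 8 were called in scramble cells (3 higher, 2 lower) and 6 in shLAD1 cells (3 higher, 3 lower), and with total-count scaling 4 in each (2 higher, 2 lower). The median of the 8 was 0.07 in scramble cells and 0.06 in shLAD1 cells.

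TNFRSF11B, osteoprotegerin, a secreted decoy receptor, was the 1 other receptor called between shRNAs over the mean of the 3 times. It had 1.03 to 11.3 normalized counts in scramble and 16.3 to 117 in shLAD1 libraries (log2 difference 2.97 ± 0.42, limma adjusted p = 0.00217), and it missed the threshold with 1 mean per combination of shRNA and replicate number (0.219). The other 13 receptors did not pass the filter.

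**Figure D5:**
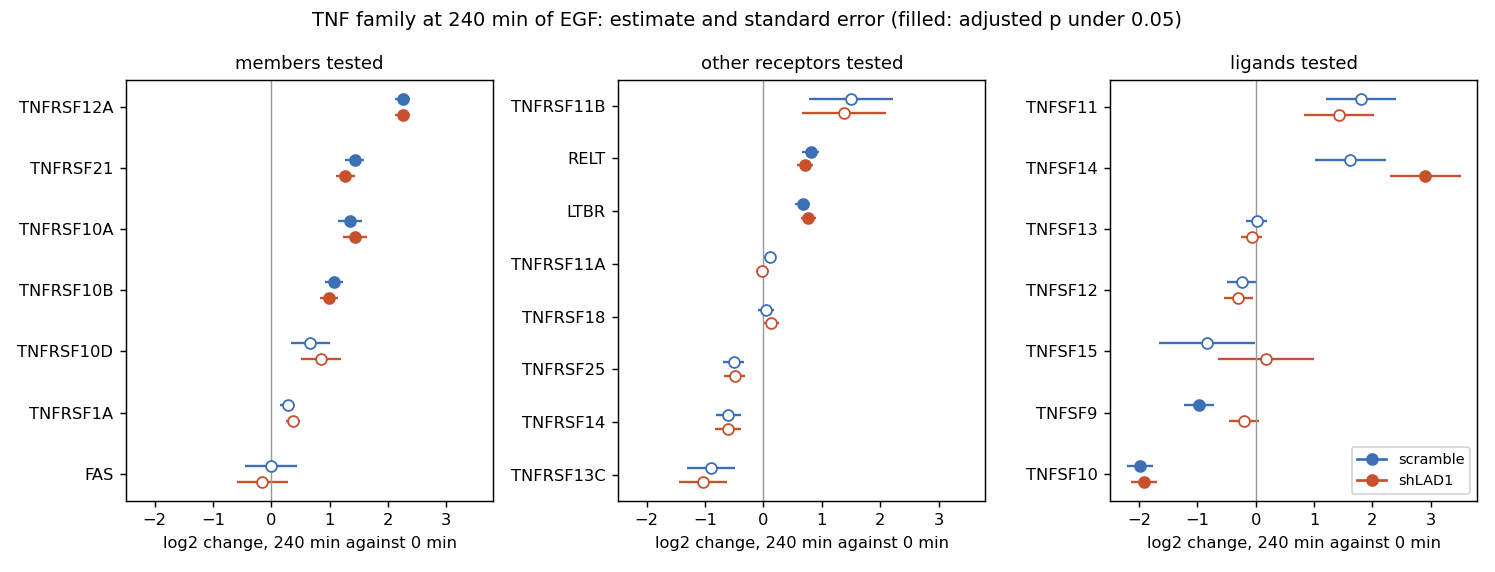
Log2 change from 0 to 240 min of EGF with its standard error (horizontal) for the tested receptors described here, the other tested receptors and the tested ligands (rows), blue for scramble and red for shLAD1, filled where the limma adjusted p was under 0.05. RELT and LTBR are filled to the right beside 4 of the 7 receptors, and TNFSF10 is filled farthest to the left (-1.98 and -1.91).

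Among 18 ligands of the superfamily, 7 passed the filter. At 240 min in scramble cells 0 were called higher and 2 lower, TNFSF10 and TNFSF9, the ligand of the T cell receptor 4-1BB. TNFSF9 went from 115 and 143 normalized counts to 196 and 220 at 40 min and 52.9 and 79.0 at 240 min (240 against 0 min, log2 change -0.98 ± 0.26, limma adjusted p = 0.0260). That call was lost without either 0 min library or 240 min library 1 (up to 0.161). In shLAD1 cells 1 ligand was called higher and 1 lower. The lower one was TNFSF10, and the higher one TNFSF14, which went from 1.03 and 4.07 to 20.5 and 26.0 (2.91 ± 0.61, limma adjusted p = 0.0110) and missed the threshold with those groups fitted alone (0.0864) and without 0 min library 1 or 240 min library 2 (0.0605 and 0.0676). With the replicate block 4 ligands were called in scramble cells, 2 in each direction. The median of the 7 was -0.24 in scramble cells and -0.07 in shLAD1 cells. The other 11 ligands did not pass the filter, among them TNF and FASLG, the ligands of TNFRSF1A and FAS.

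Downstream, TRAF adaptors and other signalling genes (28 listed, 27 tested) moved in both directions. At 40 min 2 were called higher in each kind of cell: TRAF4 (log2 change 0.75 ± 0.09, limma adjusted p = 0.00591 in scramble, and 0.86 ± 0.09, 0.00187 in shLAD1 cells) and MAP3K14, the kinase NIK of the non-canonical NF-kappa-B route (0.54 ± 0.10, 0.0385, and 0.52 ± 0.10, 0.0404). The MAP3K14 calls at 40 min were lost with total-count or upper-quartile scaling and without each library in turn. At 240 min 5 were called higher and 3 lower in scramble cells and 6 higher and 1 lower in shLAD1 cells. MAP3K14 (0.79 ± 0.10, limma adjusted p = 0.000706), TRAF4 (0.64 ± 0.09, 0.00187) and TRAF3, an adaptor that restrains NIK (0.91 ± 0.15, 0.00319), had the smallest adjusted p in scramble cells. The list's median was 0.12 in scramble and 0.06 in shLAD1 cells. The TRAF4 call at 40 min was lost in scramble cells without 0 min library 1 or 40 min library 2 (0.0748 and 0.0802), and in shLAD1 cells with those groups fitted alone (0.118). Over the mean of the 3 times TRAF5 and BIRC3 were called lower in shLAD1 cells (-0.34, limma adjusted p = 0.00574, and -0.99, 0.0424), when 18.6% of all genes were called. Both calls were lost with 1 mean per combination of shRNA and replicate number (0.302 and 0.400), and that of BIRC3 also with no filter (0.0652) and without any 1 of 9 libraries, all but the 3 shLAD1 libraries numbered 2 (up to 0.108).

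Of 14 genes of the caspase-8 arm, 1 was called higher and 1 lower at 240 min in scramble cells. FADD, the adaptor that joins TRAIL receptors and FAS to caspase-8, rose (log2 change 0.79 ± 0.13, limma adjusted p = 0.00300) and CASP10, a caspase related to caspase-8, fell (-0.80 ± 0.13, 0.00255). In shLAD1 cells 2 were called higher and 2 lower, FADD (0.71, limma adjusted p = 0.00566) and CASP10 (-0.88, 0.00190) again among them. BID was also called higher (0.37, limma adjusted p = 0.0376), a call lost with total-count scaling (0.13), with upper-quartile scaling (0.0559), and without 0 min library 2 or either 240 min library (up to 0.199). With the shLAD1 groups fitted alone FADD, CASP10 and BID all missed the threshold (0.0506, 0.0516 and 0.150). With the replicate block 4 were higher and 3 lower in each kind of cell. The list's median was -0.06 in scramble and -0.07 in shLAD1 cells.

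Of 6 genes for receptor shedding, 3 were called higher and 0 lower at 240 min in each kind of cell. They were RHBDF2 (iRHOM2, a cofactor of the sheddase ADAM17; log2 change 1.0 ± 0.14, limma adjusted p = 0.00114, and 1.01 ± 0.14, 0.00140), ADAM17 itself, which releases TNF and its receptors (0.49 ± 0.08, 0.00234, and 0.34 ± 0.08, 0.0151), and FRMD8, which binds iRHOM proteins (0.34, 0.00932, and 0.33, 0.0121). With the shLAD1 groups fitted alone none of the 3 passed (limma adjusted p = 0.0554, 0.157 and 0.143). The FRMD8 call was lost in scramble cells without library 1 of 0 or 240 min (0.0656 and 0.0583) and in shLAD1 cells without library 2 of either (0.0711 and 0.0781), and the ADAM17 call in shLAD1 cells without either 0 min library or 240 min library 2 (up to 0.0991). With total-count scaling 2 were called higher and 1 lower in scramble cells, and 1 and 1 in shLAD1 cells.

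DDIT3, the transcription factor CHOP, is a known activator of TNFRSF10B in stressed cells, and 8 genes of its ATF4 pathway were examined beside the receptors. At 40 min 2 of the 8 were called higher in each kind of cell, PPP1R15A (2.35 in both, limma adjusted p = 2.71e-05 and 2.05e-05) and ATF3 (2.81 and 3.26, 0.0148 and 0.00564). The ATF3 call was lost in scramble cells without any 1 of the 4 libraries (limma adjusted p up to 0.145) and in shLAD1 cells without 0 min library 2 or either 40 min library (up to 0.0678). At 240 min 1 was called higher and 4 lower in scramble cells, and 1 higher and 3 lower in shLAD1 cells. DDIT3 had 148 and 150 normalized counts at 0 min, 188 and 225 at 40 min, and 69.8 and 72.4 at 240 min in scramble cells. It fell by 1.06 ± 0.17 by 240 min in scramble cells (limma adjusted p = 0.00244) and by 0.94 ± 0.17 in shLAD1 cells (0.00485), and the shLAD1 call was lost with those groups fitted alone (0.0983). Any relation to TNFRSF10B was not tested. SESN2 (-2.19, limma adjusted p = 0.000107) and CHAC1 (-2.75, 0.000128) fell with it in scramble cells. The list's median at 240 min was -0.71 in scramble and -0.58 in shLAD1 cells.

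As a description with no test, Pearson correlations of log2 values over the 12 libraries were taken between each receptor and 11729 genes with a mean of at least 5 on that scale. The 12 libraries share groups, so genes with a like EGF response correlate. For TNFRSF12A the most similar genes were AEN (r = 0.995), SERPINB8 (0.989) and MAP3K9 (0.988). For TNFRSF10A they were AEN (0.980), TNFRSF12A (0.976) and SERPINB8 (0.975), and for TNFRSF10B they were AEN (0.975), TNFRSF10A (0.974) and SH3RF1 (0.972). TNFRSF21 was most similar to PPP1R13L (0.992), NPAS2 (0.991) and B3GNT3 (0.990). TNFRSF1A was most similar to SLCO3A1 (0.976), RPS6KA4 (0.972) and TBC1D2 (0.970). TNFRSF10D was most similar to MIR205HG (0.939), FLOT1 (0.937) and PCDHGC3 (0.911), and FAS to CHCHD1 (0.977), DLG5 (0.972) and NUDT5 (0.958). FAS had negative coefficients with all other tested members, -0.13 to -0.52.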

How the data were processed

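RNA was poly(A)-selected and made into TruSeq v2 libraries, which do not mark strand, per the labels' protocols. STAR, DESeq2 and hg19 are named in the submitters' processing notes; for their versions, the read counter, the annotation and strand handling, nothing is given in the sources used here. Each row of the deposited table holds a gene symbol, the signal of 12 libraries (read counts divided by size factors), and from the authors' own test a mean count, log2 fold change and its standard error, a test statistic (a score), and p-values; these columns were used only where the authors' table is named. No count table was used as such: whole reads were recovered from 100% of the deposited values (within 0.001) and gave the depths, and edgeR and DESeq2 ran on them as alternatives.

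The main test was limma 3.58.1 (trend, robust; R 4.3.3) on log2(normalized count + 1), with 1 mean per group over all 12 libraries and the 13950 genes that reached 10 normalized counts in 2 or more libraries (20013 had a read), for 12 comparisons, each with Benjamini-Hochberg adjustment over all genes tested. Alternatives were a pseudocount of 5, no filter, total-count and upper-quartile scaling, edgeR 4.0.16 with TMM, DESeq2 1.42.0, the replicate block, only the groups compared, and each library left out. A mean for each combination of shRNA and replicate number was added after seeing the data. The replicate numbers, taken from the labels, pair the libraries: deviations from group means of same-numbered libraries correlated at 0.645 to 0.734 over 6 pairs of groups of one shRNA and 0.247 to 0.307 over 9 with different shRNAs. The 2 libraries of a group differed by more than sampling noise (chi-square per degree of freedom 8.59 to 21.3). The procedure was tested on simulated data with libraries drawn independently, so that test does not cover the pairing by replicate number. The members and gene lists were chosen with earlier results of these data known. Named were all 8 members, LAD1, other receptors passing the filter, the called genes with the 3 smallest adjusted p in the other lists, and the 3 genes most similar to each member. TIMP3, TNFSF12, TNF, FASLG, DDIT3 in shLAD1 cells, genes that overlap a receptor and the marker genes were named outside that rule, after their values were seen.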

Additional observations from a re-analysis of the deposited data

How the results depend on the processing

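Over the tested members and all alternatives, 1118 values kept their side of the threshold, 92 of them with the opposite sign and not called, 40 lost a call, 18 gained one and 0 reversed while called. The number of members called moved as follows, and the cause was not tested. In scramble cells at 40 min (1 in the report) it was 0 with total-count scaling, 0 with upper-quartile scaling, 0 with only the groups compared, 2 with the replicate block within each shRNA, and 0 to 0 with 1 library left out; from 40 to 240 min (4) it was 2 to 3 with 1 left out. In shLAD1 cells at 40 min (1) it was 0 with only the groups compared and 0 to 1 with 1 left out; at 240 min (4) it was 2 with only the groups compared; from 40 to 240 min (4) it was 1 with only the groups compared and 2 to 4 with 1 left out. Between shRNAs, the replicate block gave 1 at 0 min, 1 at 40 min and 3 over the mean of the 3 times; the last count was 0 with 1 mean per combination of shRNA and replicate number and 0 to 1 with 1 left out. Outside the changes given here and in the report, the replicate block changed no member's call.

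Over all genes, counts that moved by over 1.5 times were, in the order 40 min, 240 min and 40 to 240 min, 202, 4557 and 4251 in scramble and 274, 4249 and 4004 in shLAD1 cells with the replicate block (119, 2813 and 2580, and 145, 2585 and 2288 without). Within each shRNA the block gave 530, 6715 and 6462, and 666, 6450 and 6218. Only the groups compared gave 30, 313 and 164 in shLAD1 cells. With 1 library left out the ranges were 55 to 58, 1355 to 1699 and 1137 to 1545, and 75 to 106, 1300 to 1888 and 1086 to 1602. Between shRNAs at 0, 40 and 240 min (217, 230 and 133) DESeq2 called 514, 533 and 383, the block 1600, 1578 and 1462, only the groups compared 1 each, and fits with 1 library left out 4 to 39, 2 to 50 and 4 to 56; over the mean of the 3 times (2588) the block called 5034, 1 mean per combination 0 by limma (1798 at an unadjusted p under 0.05), and 1 left out 1460 to 2793. Total-count scaling changed the split at 240 min from 1635 higher and 1178 lower to 1141 and 2205 in scramble cells. TNFRSF10D and TNFRSF10A had 23 to 81 and 40 to 143 reads per library, which limits their precision.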

Other observations

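TIMP3, an inhibitor of ADAM17 from the shedding list, had 503, 704 and 522 normalized counts in scramble library 1 at 0, 40 and 240 min and 23.6, 25.9 and 24.5 in scramble library 2. In shLAD1 cells library 1 had 79.1, 81.1 and 94.1 and library 2 had 20.4, 31.4 and 32.0. It was not called by limma in any of the 12 comparisons. FAS was also above in library 1 in all 6 groups, by less, and TNFRSF1A and TNFRSF21 above in library 2.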
